A study of Mus musculus with 24 samples.

Results

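The 39 genes described here encode 14 factors that build and maintain mitochondria, 10 genes of the integrated stress response and 15 genes of the endoplasmic reticulum (ER) and its unfolded protein response. They were chosen by name and found on the arrays through the accession of each probe, and all 39 were measured, out of 21051 features tested (13014 named genes and 8037 probes without a gene name). RNA came from the epididymal white fat, a visceral depot next to the testis, of 24 male C57BL/6JRcc mice, which were 8 or 9 weeks old at the start and 28 or 29 weeks old when killed. All were first adapted for 2 weeks to a semi-synthetic diet with 40% of its energy from fat and 0.115% tryptophan, which is low but sufficient, and with 30 mg of nicotinamide riboside (NR) per kg as the form of vitamin B3. For 18 weeks, 12 mice then stayed on this diet (Ctrl NR) and 12 received the same diet with 0 mg NR (No NR). Both groups were given 0.8 g of diet at the start of the dark phase so that they were fasted by its end, were refed 1.8 g for 4 hours, and were then killed. The Cy5 label of an array carried the RNA of 1 mouse and the Cy3 label a shared pool of fat RNA, to which further diet groups and females had contributed. A value is the log2 ratio of a mouse to that pool, so a level can be compared between mice but not between genes, and a difference is No NR minus Ctrl NR.

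Vitamin B3 is a precursor of NAD, the electron carrier that feeds the mitochondrial respiratory chain and the substrate of sirtuins. Mitochondrial biogenesis is driven by coactivators of the PGC-1 family acting with the transcription factors NRF1, GABPA and ERRα, which raise nuclear genes for mitochondrial proteins and the factors that copy and transcribe mitochondrial DNA. In the integrated stress response, kinases that sense amino acid shortage, ER stress or mitochondrial failure phosphorylate the initiation factor eIF2α, and translation of ATF4 then rises and induces genes of amino acid synthesis and transport. In the unfolded protein response, the ER sensors IRE1, ATF6 and PERK raise chaperones and disulfide isomerases when misfolded protein accumulates. Adipocytes secrete large amounts of protein, and obese fat pads fill with macrophages, so RNA of a whole pad mixes the programmes of several cell types.

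In Cy5, the share of non-control spots well above background ran from 34.5% to 50.7% per array (median 44.7%). The arrays lay on 5 slides, each scanned at 1 time and each with mice of both diets (2, 2, 2, 4 and 2 Ctrl NR and 1, 3, 3, 2 and 3 No NR mice on slides 1 to 5). All 16 adipocyte markers listed were well above background on every array, and 23 of the 25 measured macrophage markers were. Of 9 listed genes of epididymis and testis, tissues that lie against this fat pad, 4 passed the filter on dim probes. Of the 9, 0 were well above background on every array. The mean of the 4 that passed ran from -2.01 to 2.45 over the mice. It was highest in Ctrl NR 108 (2.45), Ctrl NR 77 (1.48) and No NR 110 (0.96). Whether their pads carried neighbouring tissue was not tested. The standard error of a difference had a median of 0.0811 on the log2 scale over all features, and the number of arrays limits the precision. In RNA of a whole pad, fewer cells of a type and less RNA per cell cannot be told apart. The labels give 1 animal number per sample, so the mouse is the replicate.

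The control elements known for these pathways can be read in the promoters, and are shown so that the members' sequences can be compared. RefSeq promoter windows of build GRCm38.p6, from 250 bases before to 50 bases after the annotated start, were at hand for 36 of the 39 genes. The ER stress response element, CCAAT, then any 9 bases, then CCACG, is bound by NF-Y and ATF6. On either strand it stood in 6 of the 36 members, all 6 of them ER genes, against 0.137% of the 27025 genes with a window. In the stretches below, read 5′ to 3′ on the strand of the gene, the capitals mark the element with up to 20 bases on each side; in Calr and in the second stretch of Hsp90b1 it lies on the opposite strand and is read as its reverse complement.
Hspa5, chr2:34772005-34772063, plus strand: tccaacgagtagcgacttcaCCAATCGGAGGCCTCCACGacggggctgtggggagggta
Hsp90b1, chr10:86705618-86705676, minus strand: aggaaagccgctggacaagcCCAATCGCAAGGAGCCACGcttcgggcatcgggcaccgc
Hsp90b1, chr10:86705513-86705571, minus strand: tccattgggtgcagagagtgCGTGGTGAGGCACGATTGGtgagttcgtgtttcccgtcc
Calr, chr8:84847055-84847113, minus strand: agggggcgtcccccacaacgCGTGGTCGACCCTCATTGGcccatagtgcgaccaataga
Canx, chr11:50325780-50325838, minus strand: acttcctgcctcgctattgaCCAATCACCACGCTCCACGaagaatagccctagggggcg
Pdia6, chr12:17266471-17266529, plus strand: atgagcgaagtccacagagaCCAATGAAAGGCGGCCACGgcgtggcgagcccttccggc
Dnajc3, chr14:118937807-118937865, plus strand: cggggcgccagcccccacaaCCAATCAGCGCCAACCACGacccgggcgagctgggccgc

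Herpud1, an ER membrane protein of the degradation machinery, held the related element ATTGG, any base, CCACG (0.0444% of genes), and its capitals are marked in the same way.
Herpud1, chr8:94386357-94386407, plus strand: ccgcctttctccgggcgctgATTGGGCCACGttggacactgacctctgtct

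The composite site TGATG, any base, AA, at which ATF4 pairs with a C/EBP factor, stood in 6 members: Fgf21, Trib3, Asns and Chac1 of the integrated stress genes, and Esrra and Herpud1 outside that group. The same 8 letters occurred in 4.51% of all genes with a window. The copies upstream of the start follow; the stretch of Asns ends at the start site, and in Chac1, Fgf21 and Herpud1 the site is on the opposite strand.
Asns, chr6:7693210-7693252, minus strand: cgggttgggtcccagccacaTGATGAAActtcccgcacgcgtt
Chac1, chr2:119351029-119351076, plus strand: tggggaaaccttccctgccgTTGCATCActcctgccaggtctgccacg
Fgf21, chr7:45615602-45615649, minus strand: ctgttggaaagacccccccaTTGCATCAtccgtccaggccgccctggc
Esrra, chr19:6922008-6922055, minus strand: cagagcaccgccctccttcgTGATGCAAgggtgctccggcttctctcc
Herpud1, chr8:94386297-94386344, plus strand: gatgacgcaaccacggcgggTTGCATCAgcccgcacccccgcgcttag

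Hspd1 and Hspe1, which encode the chaperonin HSP60 and its lid HSP10, are neighbours transcribed in opposite directions. The window of Hspe1 shared 285 bases with 1 of the windows of Hspd1, and the ETS-type site CCGGAAG, recognised by GABPA, stood there on both strands as an overlapping pair. That site occurred in 10 members (6 mitochondrial factors, 2 integrated stress genes and 2 ER genes) and in 9.93% of all genes with a window. The stretch is printed on the strand of Hspe1.
Hspe1, chr1:55088048-55088097, plus strand: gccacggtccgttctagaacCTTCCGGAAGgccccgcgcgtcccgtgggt

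The NRF1-type site GCGCA, any base, GCGC was found in Hspd1 and Dnajb9 (5.19% of genes), and the ERRα-type site TCAAGGTCA in 0 members (0.466% of genes). A match of letters is a description of the sequence only, and no array value bears on binding there.

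None of the 39 genes differed between the diets by the test over all features. By limma with Benjamini-Hochberg adjustment over 21051 features, 0 members had an adjusted p under 0.05, as did 0% of all features, and the smallest adjusted p of a member was 0.183 (Esrra). Without adjustment, 4 members had a limma p under 0.05, each of them lower under No NR: Esrra, Nrf1, Chac1 and Pdia4. Among all features, 14.1% were under that p, 7.23% with lower and 6.87% with higher values in No NR mice, so the members' share is near the background. In 26 of the 39 members the difference was below 0, against 52.4% of all features. The median difference was -0.05 over the 39 members and -0.01 over all features. The range of values in Ctrl NR mice overlapped that in No NR mice for all 39. The splits depended on the scaling: with median centring in place of loess 35 of 39 differences were below 0, and of all features 84 were higher and 180 lower at an unadjusted p under 0.05, against 1446 and 1522 with loess and 1778 and 1197 without background correction.

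**Figure D1:**
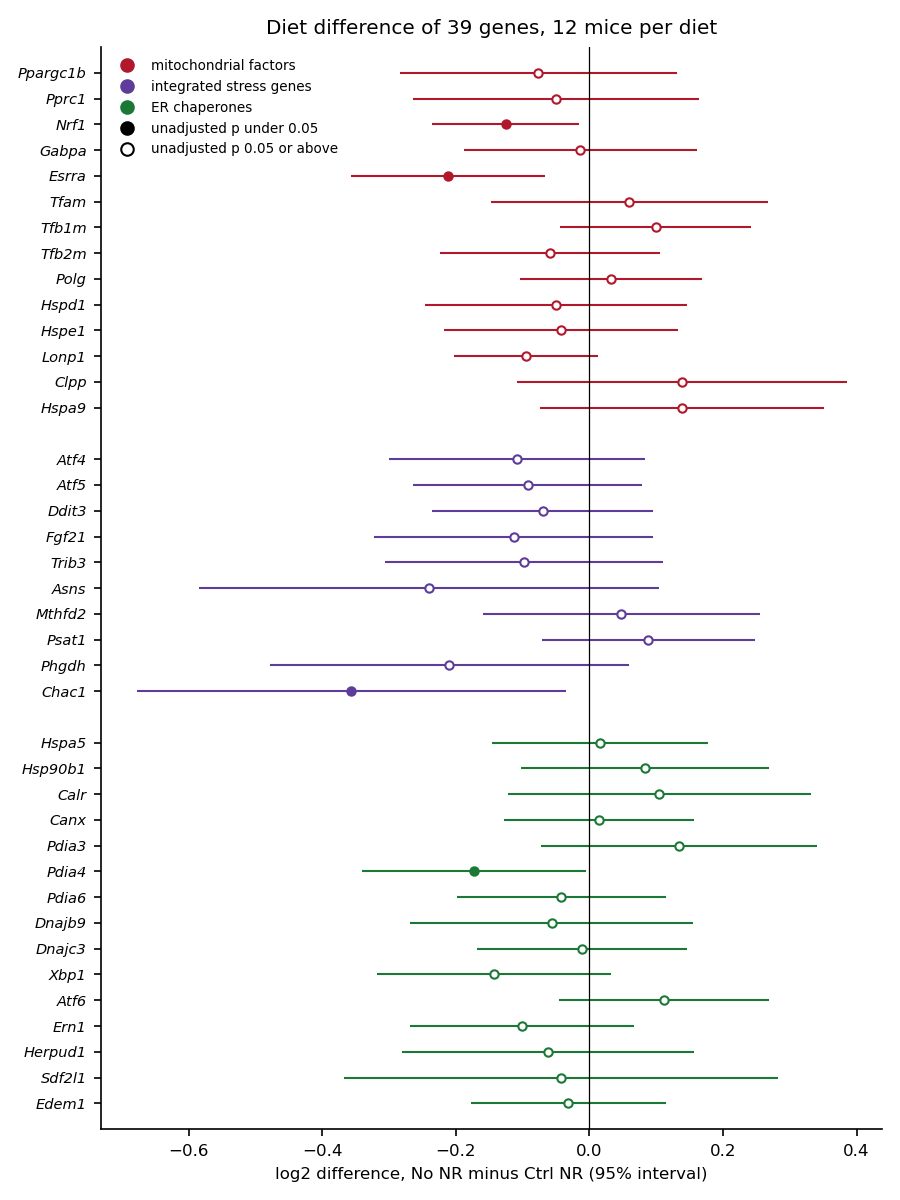
Each point is the log2 difference between the diets (No NR minus Ctrl NR, horizontal axis) of 1 gene, with its 95% interval from limma, 12 mice per diet; colours mark the 3 groups of genes and filled points an unadjusted limma p under 0.05. All 4 filled points lie below 0, from -0.36 (Chac1) to -0.13 (Nrf1), and the intervals of the other 35 genes span 0.

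Among the mitochondrial factors, 5 differences lay above and 9 below 0, with a median of -0.05 and a range from -0.21 to 0.14. Esrra, which encodes the nuclear receptor ERRα that directs genes of oxidative metabolism, had the lowest p of all 39 members. Its value ran from -0.40 over a median of -0.16 to 0.22 in Ctrl NR mice, and from -0.51 over -0.39 to -0.11 in No NR mice. In 11 of the 12 No NR mice Esrra was below the Ctrl NR median and 6 were below every Ctrl NR mouse, while the upper part of the No NR range overlapped the Ctrl NR values. The difference was -0.21 (SE 0.0707, 95% interval -0.36 to -0.07, 0.864-fold; unadjusted limma p = 0.00592, adjusted p = 0.183). It was below 0 on each slide (-0.28, -0.08, -0.11, -0.24 and -0.29) and -0.19 with slide as a block (limma p = 0.0112, adjusted p = 0.259). With median centring its unadjusted p was 0.125.

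Nrf1, the gene of nuclear respiratory factor 1, ran from -0.17 over a median of 0.14 to 0.32 in Ctrl NR and from -0.12 over -0.01 to 0.10 in No NR mice. All 12 No NR mice were below the Ctrl NR median, but none was below the lowest Ctrl NR mouse. The difference was -0.13 (SE 0.0534, 95% interval -0.24 to -0.02; limma p = 0.0266, adjusted p = 0.286). Nrf1 varied little between mice: only 4.78% of all features had a smaller SD. The difference rests on 1 probe: the other probe that passed the filter, detected above background on 4 arrays of Ctrl NR and 7 of No NR, showed 0.00 (-0.00286 before rounding), and the mean of both had a p above 0.05. The p of Nrf1 was under 0.05 in 7 of 11 other settings, and 0.0543 without mouse Ctrl NR 84.

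Lonp1, the protease that clears damaged and oxidised proteins from the mitochondrial matrix, ranged from -0.29 (median -0.15) to 0.19 in Ctrl NR and from -0.36 (median -0.24) to -0.10 in No NR mice. The ranges overlapped, with 5 of 12 No NR mice below every Ctrl NR mouse, and the difference was -0.09 (SE 0.0524, 95% interval -0.20 to 0.01; limma p = 0.0825, adjusted p = 0.419), with the same sign on all 5 slides. Clpp, the proteolytic subunit of the other matrix protease, lay at 0.14, and Hspa9, the mitochondrial HSP70 that pulls in and folds imported proteins, at 0.14. For Hspa9, 10 of 12 No NR mice were above the Ctrl NR median.

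Tfam, which packages mitochondrial DNA and starts its transcription, spanned -1.08 to 0.35 (median -0.16) in Ctrl NR and -0.31 to 0.11 (median -0.14) in No NR mice. The lowest value belonged to mouse Ctrl NR 64, well apart from the other 11. The difference was 0.06 (SE 0.101, 95% interval -0.15 to 0.27; limma p = 0.557, adjusted p = 0.814), and -0.02 without that mouse. The other factors of mitochondrial DNA were at 0.10 for Tfb1m and -0.06 for Tfb2m, related rRNA methyltransferase and transcription factors, and at 0.03 for Polg, the mitochondrial DNA polymerase.

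Hspd1 ran from -0.18 to 0.60 (median 0.24) in Ctrl NR and from -0.02 to 0.63 (median 0.11) in No NR mice. Its partner Hspe1 ran from -0.54 to 0.14 (median -0.25) and from -0.57 to 0.31 (median -0.32). Both pairs of ranges overlapped. The difference of Hspd1 was -0.05 (SE 0.0956, 95% interval -0.25 to 0.15; limma p = 0.603, adjusted p = 0.841) and that of Hspe1 -0.04 (SE 0.0852, 95% interval -0.22 to 0.13; limma p = 0.617, adjusted p = 0.848). The coactivators Ppargc1b and Pprc1, members of the PGC-1 family, were at -0.08 and -0.05, and Gabpa, which encodes the DNA-binding subunit of GABP, at -0.01. The Ppargc1b probe was detected above background on 7 arrays of Ctrl NR and 8 of No NR. The sign was not the same under every processing for 6 of the 14 genes: Pprc1, Gabpa, Tfam, Polg, Hspe1 and Hspa9.

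Of the integrated stress genes, 8 of 10 differences were below 0 and 2 above, with a median of -0.10. Chac1, an ATF4 target that breaks down glutathione, had the largest difference of the 39 members. It ran from -0.90 over a median of -0.29 to 1.09 in Ctrl NR and from -1.22 over -0.63 to -0.17 in No NR mice. Mouse Ctrl NR 115 stood at the top alone, and 11 of 12 No NR mice lay below the Ctrl NR median. The difference was -0.36 (SE 0.157, 95% interval -0.68 to -0.04, 0.781-fold; limma p = 0.0310, adjusted p = 0.301). Within slides it was -0.45, -0.65, -0.07, 0.04 and -0.59. The p of Chac1 rose above 0.05 without mouse Ctrl NR 104 or No NR 114 (highest 0.0617 on leaving out 1 mouse). It was under 0.05 in 10 of 11 other settings and 0.0792 with processed signals (limma). The array of Ctrl NR 115 had the lowest share of spots above background, 34.5%, and without this mouse the difference was -0.23 (limma p = 0.0495).

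Asns, asparagine synthetase, spanned -0.89 to 0.67 (median -0.35) in Ctrl NR and -0.88 to 0.12 (median -0.55) in No NR mice. The 2 ranges began at the same level, and only Ctrl NR mice exceeded 0.12. The difference was -0.24 (SE 0.168, 95% interval -0.59 to 0.10; limma p = 0.165, adjusted p = 0.532). Phgdh, the first enzyme of serine synthesis, ran from -0.60 to 0.50 (median 0.23) in Ctrl NR and from -0.59 to 0.38 (median -0.13) in No NR mice, again with overlapping ranges. Its difference was -0.21 (SE 0.131, 95% interval -0.48 to 0.06; limma p = 0.121, adjusted p = 0.478), below 0 on all 5 slides. Asns and Phgdh were among the most variable members: 95.2% and 89.5% of all features had a smaller SD over the 24 mice. Psat1, the next enzyme of serine synthesis, was at 0.09 and Mthfd2, a mitochondrial enzyme of folate metabolism, at 0.05.

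Atf4 itself ran from -0.06 to 0.63 (median 0.09) in Ctrl NR and from -0.24 to 0.68 (median 0.06) in No NR mice. The 2 highest values came from Ctrl NR 115 and No NR 118, 1 mouse of each diet. The difference was -0.11 (SE 0.0934, 95% interval -0.30 to 0.08; limma p = 0.258, adjusted p = 0.622). Since ATF4 is regulated mainly through translation, its transcript is not a measure of its activity. Ddit3, which encodes the stress-induced factor CHOP, ran from -0.40 to 0.43 (median 0.02) and from -0.37 to 0.27 (median -0.03), a difference of -0.07 (SE 0.0806, 95% interval -0.24 to 0.10; limma p = 0.394, adjusted p = 0.718). Fgf21, a hormone induced by mitochondrial stress and fasting, ran from -0.26 to 0.76 (median -0.04) and from -0.47 to 0.33 (median -0.13), a difference of -0.11 (SE 0.102, 95% interval -0.32 to 0.10; limma p = 0.275, adjusted p = 0.637). The values of both genes overlapped between diets, and the highest Fgf21 value was again that of Ctrl NR 115. Atf5, a transcription factor of the mitochondrial stress response, was at -0.09 and Trib3, a pseudokinase induced by ATF4 and CHOP, at -0.10. The sign turned under some processing for Mthfd2 and Psat1 only.

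Of the ER genes, 6 differences were above and 9 below 0, with a median of -0.03. Pdia4, a protein disulfide isomerase, ran from -0.33 over a median of 0.05 to 0.37 in Ctrl NR and from -0.38 over -0.20 to 0.04 in No NR mice. All 12 No NR mice lay below the Ctrl NR median, and 1 lay below every Ctrl NR mouse. The difference was -0.17 (SE 0.0818, 95% interval -0.34 to -0.00467, 0.887-fold; limma p = 0.0444, adjusted p = 0.338), with within-slide values of -0.53, -0.01, -0.15, -0.24 and -0.06. With slide as a block its p was 0.0799, and it was under 0.05 in 7 of 11 other settings and in 10 of the 24 fits that left out 1 mouse. The other isomerases were at 0.13 for Pdia3 and -0.04 for Pdia6.

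Hspa5, which encodes BiP, the master chaperone of the ER lumen, ran from -0.32 to 0.31 (median 0.04) in Ctrl NR and from -0.20 to 0.38 (median 0.01) in No NR mice. The ranges overlapped, with 2 No NR mice above every Ctrl NR mouse and a difference of 0.02 (SE 0.0788, 95% interval -0.15 to 0.18; limma p = 0.838, adjusted p = 0.945). Hsp90b1, the ER member of the HSP90 family (GRP94), ran from -0.55 to 0.43 (median 0.12) and from -0.09 to 0.39 (median 0.11). All No NR mice fell inside the Ctrl NR range, and the difference was 0.08 (SE 0.0904, 95% interval -0.10 to 0.27; limma p = 0.368, adjusted p = 0.701). Calr and Canx, the lectin chaperones that fold glycoproteins, were at 0.10 and 0.01. The co-chaperones Dnajb9 and Dnajc3 were at -0.06 and -0.01, Sdf2l1, a cofactor of BiP, at -0.04, and Edem1 and Herpud1, which hand misfolded proteins to degradation, at -0.03 and -0.06.

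Among the sensors and transcription factors, Xbp1, whose mRNA is spliced by IRE1 to give an active factor, ran from -0.28 to 0.42 (median 0.06) in Ctrl NR and from -0.58 to 0.20 (median -0.15) in No NR mice. In 10 of 12 No NR mice it lay below the Ctrl NR median. The difference was -0.14 (SE 0.0855, 95% interval -0.32 to 0.03; limma p = 0.107, adjusted p = 0.458), and the ratio does not tell the spliced from the unspliced form. Atf6, the membrane-bound factor cut in the Golgi under ER stress, ran from -0.55 to 0.11 (median -0.16) and from -0.23 to 0.28 (median -0.04). These ranges overlapped, with a difference of 0.11 (SE 0.0763, 95% interval -0.05 to 0.27; limma p = 0.156, adjusted p = 0.523). Ern1, which encodes IRE1α, was at -0.10. In 9 of the 15 ER genes the sign was not the same under every processing: Hspa5, Hsp90b1, Calr, Canx, Pdia3, Pdia6, Dnajb9, Dnajc3 and Sdf2l1.

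**Figure D2:**
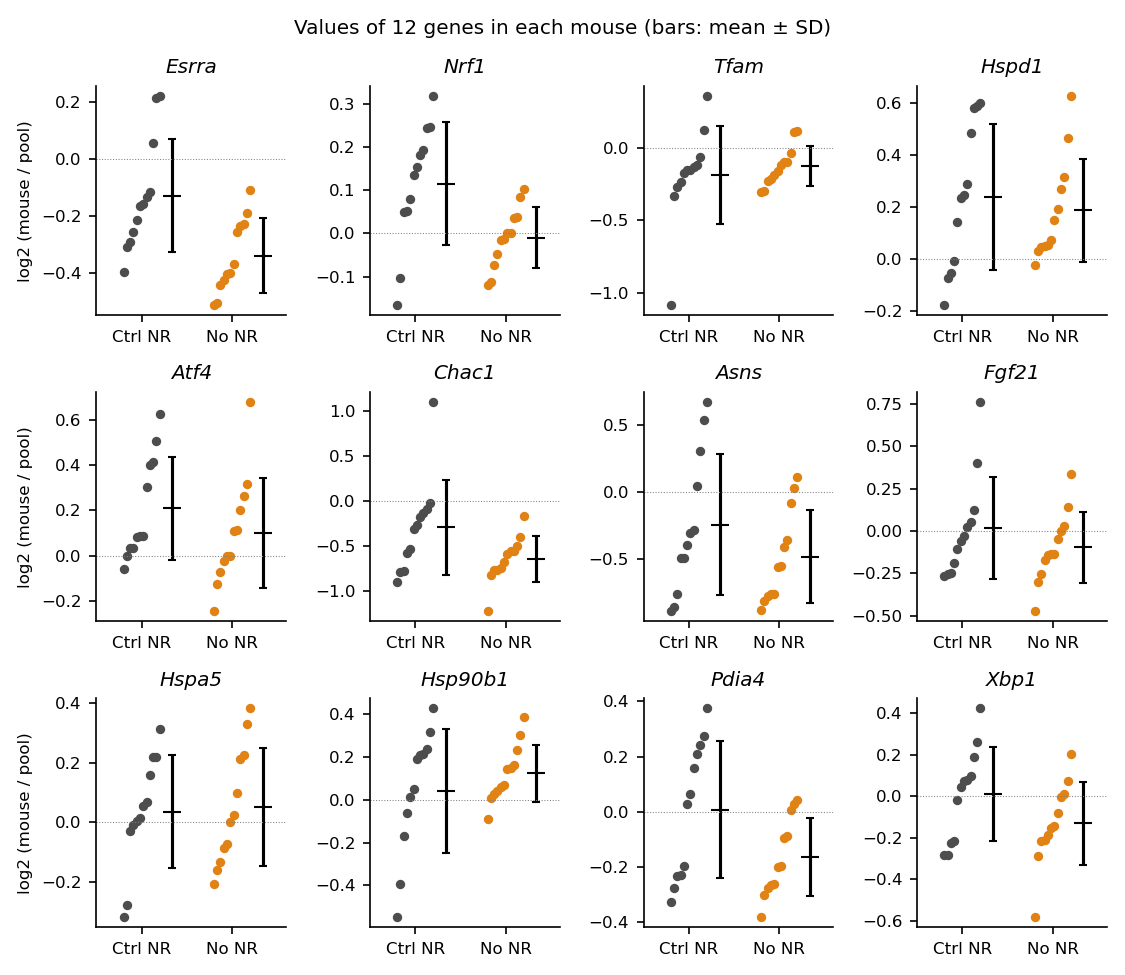
Each point is the log2 ratio of 1 mouse to the reference pool (vertical axis, scaled per panel) for 12 genes, with Ctrl NR mice in grey and No NR mice in orange, 12 per diet and sorted by value; the bars give mean ± SD. The 2 clouds overlap in every panel, and single mice stand apart for Tfam (Ctrl NR 64 at -1.08) and Chac1 (Ctrl NR 115 at 1.09).

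Other genes of the 3 pathways are set here against the 14.1% of all features with an unadjusted limma p under 0.05 (7.23% lower and 6.87% higher in No NR mice). Of 30 further mitochondrial genes (replication, import, proteases, chaperones), all measured, 15 lay above and 15 below 0, and 6 had an unadjusted limma p under 0.05, 2 higher and 4 lower in No NR mice. The lowest p-values were those of Timm44, which tethers HSPA9 to the import channel, at -0.18 (SE 0.0627, limma adjusted p = 0.195), and Dnaja3, a co-chaperone of HSPA9, at -0.20 (SE 0.0798, limma adjusted p = 0.250). Of 28 further integrated stress genes, 25 were measured and 2 had an unadjusted p under 0.05, both lower. These were Stc2, a secreted glycoprotein induced by ATF4, at -0.29 (SE 0.119, limma adjusted p = 0.271), and Ppp1r15a (GADD34), the phosphatase subunit that reverses eIF2α phosphorylation, at -0.14 (SE 0.0693, limma adjusted p = 0.349). Of 30 further ER genes, all measured, 6 had an unadjusted p under 0.05, 2 higher and 4 lower. Os9, a lectin of ER-associated degradation, was at -0.17 (SE 0.0489, limma adjusted p = 0.130) and Creb3l2, an ATF6-like factor, at -0.33 (SE 0.0971, limma adjusted p = 0.135). All 6 named genes had the same sign on each slide, and 0 genes of these lists passed after adjustment.

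The lists of cell type markers are given beside these genes. The median difference was 0.25 for 25 macrophage markers, 24 of them above 0 and 3 at an unadjusted limma p under 0.05, and -0.12 for 16 adipocyte markers, 6 of them above 0 and 1 under that p (14.1% of all features). It was -0.15 for 10 endothelial, 0.25 for 9 stromal and -0.25 for 9 plasma and B cell markers, of which Derl3 is also on the list of further ER genes. Under the same unadjusted p were 4 endothelial and 2 plasma and B cell markers, all lower in No NR mice (7.23% of all features). So was 1 stromal marker, which was higher (6.87%). Averaged per mouse, the macrophage list ran from -1.54 to 0.63 in Ctrl NR mice and from -0.97 to 0.60 in No NR mice, and the adipocyte list from -0.62 to 0.79 and from -0.49 to 0.76. The diets overlapped on both. None of these marker genes passed the adjusted threshold, and the part of cell composition in the diet differences above was not tested.

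Mice of the same diet differed widely, and the called members split into genes with lower and genes with higher values in mice with a higher mean of the macrophage markers. A family of 200 relations over 24 mice was tested (44 between members and 156 of members with 4 measures), by 2-sided permutation tests with 100000 resamples for Pearson's r and Spearman's rho, with Benjamini-Hochberg adjustment over the family, and a relation is called where both adjusted p-values are under 0.05. This held for 31. With the macrophage list mean, 13 of 39 members were called, 7 with negative and 6 with positive r. Across all features 10.2% had an r below -0.5 and 16.0% one above 0.5, against 8 and 8 of the 39 members. The share of all features that would meet the rule for a call was not computed.

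The clearest opposition was that of Asns, with r = -0.947 and rho = -0.941 (permutation test, p = 1e-05 for both, the smallest the resamples can give, adjusted p = 0.000286 and 0.00025). Ctrl NR 115, the mouse with the lowest macrophage mean (-1.54), had the highest Asns value (0.67), and Ctrl NR 88, with the highest macrophage mean (0.63), had the lowest (-0.89). The relation was alike within diets (r = -0.973 in Ctrl NR and -0.909 in No NR), with slide means removed (-0.950) and without the 2 mice farthest from the median (-0.929). Hspd1 followed with r = -0.883 and rho = -0.846 (permutation test, adjusted p = 0.000286 and 0.00025; within diets -0.898 and -0.870, without the 2 farthest mice -0.861). Xbp1 gave r = -0.792 and rho = -0.810 (within diets -0.921 and -0.589, without the 2 farthest mice -0.719), and Phgdh r = -0.743 and rho = -0.723 (-0.719 and -0.740, without them -0.703). For Esrra, r was -0.713 and rho -0.607 (-0.653 and -0.866, without them -0.579). With median centring in place of loess, r was 0.229 for Asns, 0.603 for Hspd1, 0.646 for Xbp1, 0.493 for Phgdh and 0.651 for Esrra, so the sign of these 5 relations depended on the normalization.

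Weaker relations were those of Lonp1 and Tfb2m. For Lonp1 r was -0.600, but -0.386 without the 2 farthest mice and -0.242 within No NR, and the call was lost without Ctrl NR 115 (r = -0.487), so it rests on those mice. For Tfb2m r was -0.538 (-0.621 without the 2 farthest mice), and leaving out any 1 of 8 mice ended the call. Hspe1, although it shares its promoter region with Hspd1, was not called (r = -0.417, rho = -0.400; permutation test, adjusted p = 0.128 and 0.185).

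In the other direction, Sdf2l1 rose with the macrophage mean at r = 0.863 and rho = 0.822 (permutation test, adjusted p = 0.000286 and 0.00025; within diets 0.902 and 0.923, without the 2 farthest mice 0.831). Its lowest value, -0.83, belonged to Ctrl NR 77 and its highest, 0.71, to Ctrl NR 117, whose macrophage means were -0.82 and 0.42. The lectin chaperones Calr (r = 0.696, rho = 0.691) and Canx (r = 0.611, rho = 0.625) moved the same way, as did Mthfd2 (r = 0.605, rho = 0.668), Pdia3 (r = 0.571, rho = 0.598) and Ern1 (r = 0.549, rho = 0.563). Without the 2 farthest mice these were 0.613, 0.757, 0.585, 0.504 and 0.433 in the same order. The call was lost without Ctrl NR 95 or No NR 90 for Pdia3 and without Ctrl NR 115 or Ctrl NR 95 for Ern1.

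**Figure D3:**
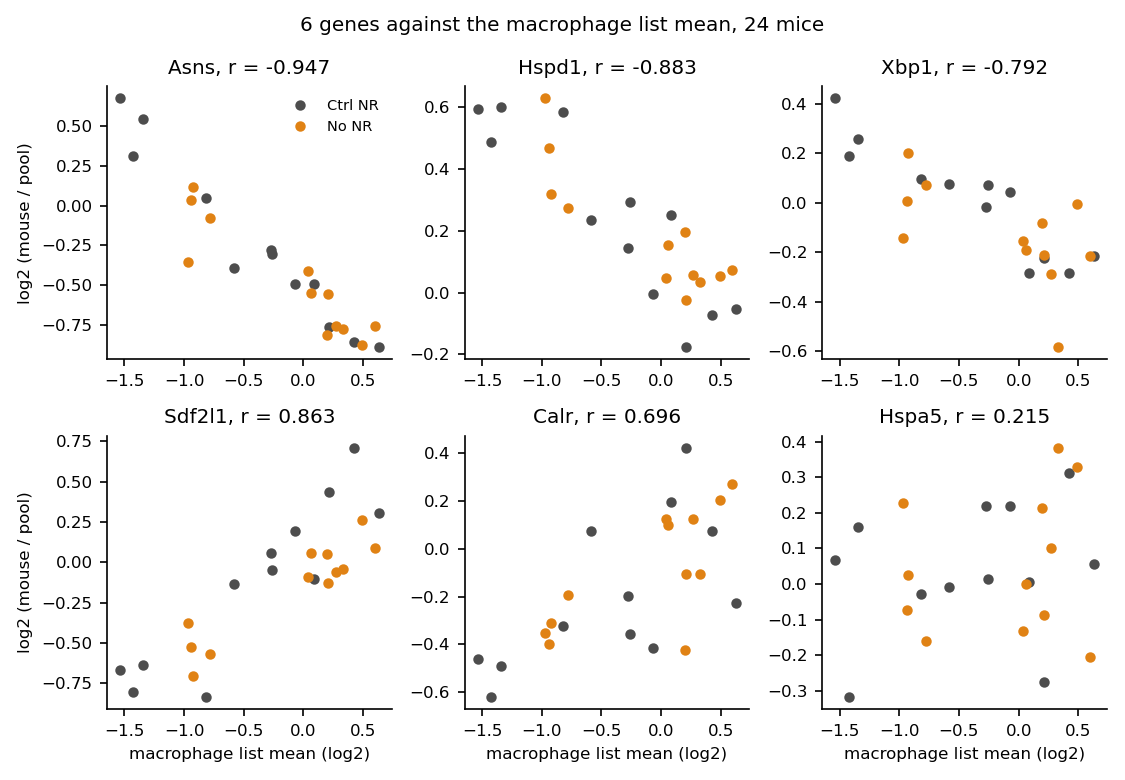
The log2 ratio of 6 genes (vertical axes, scaled per panel) is plotted against the mean log2 ratio of 25 macrophage markers (horizontal axes) in 12 Ctrl NR mice (grey) and 12 No NR mice (orange), with Pearson's r over the 24 mice in each title. Asns, Hspd1 and Xbp1 fall and Sdf2l1 and Calr rise along the axis in both diets, while Hspa5 shows little relation (r = 0.215).

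For the 6 genes with an ER stress response element, r with the macrophage mean was 0.696 for Calr, 0.611 for Canx, 0.536 for Hsp90b1, 0.348 for Pdia6, 0.215 for Hspa5 and -0.0745 for Dnajc3. The other Pdia6 probe that passed the filter, which is outside the tested family, gave 0.607, so the value of Pdia6 depends on the probe. The calls covered Calr and Canx; for Hsp90b1 the adjusted p of rho was 0.077. Sdf2l1, the ER gene with the largest r, had no exact match to either ER element in its window. Whether these coefficients differ from each other was not tested. Of the genes with the ATF4 composite site, r was -0.947 for Asns, -0.713 for Esrra, -0.486 for Herpud1, -0.462 for Chac1, -0.448 for Trib3 and -0.129 for Fgf21. The other members ran from -0.883 (Hspd1) to 0.863 (Sdf2l1), and a difference between genes with and without the site was not tested.

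The adipocyte list mean gave the mirror image, as the 2 list means were themselves closely opposed (r = -0.953), so these are not separate results. It called 11 members: Asns (r = 0.905), Hspd1 (0.878), Phgdh (0.767), Xbp1 (0.738), Esrra (0.621) and Hspa9 (0.544) with positive r, and Sdf2l1 (-0.889), Canx (-0.692), Mthfd2 (-0.610), Calr (-0.595) and Ern1 (-0.581) with negative r. With the share of spots above background, a measure of array quality, 1 member was called: Fgf21 (r = -0.572, rho = -0.574). Its r was -0.210 with slide means removed, -0.828 within Ctrl NR and -0.234 within No NR. The call was lost without Ctrl NR 115 (r = -0.406). Atf4 (r = -0.564) and Chac1 (r = -0.507) passed with r (permutation test, adjusted p = 0.027 and 0.046) but not with rho (0.103 and 0.154). Within Ctrl NR and No NR, r was -0.692 and -0.425 for Atf4, and -0.841 and 0.064 for Chac1. The unnamed probe A_55_P2138100, which had the largest diet difference of all features (-1.52), was related to Esrra (r = 0.661, rho = 0.653; within diets 0.491 and 0.520) and Clpp (r = -0.632, rho = -0.652; within diets -0.753 and -0.260). The probe was chosen from earlier results of these data. An r over both diets includes the diet differences of probe and gene, so these 2 calls are not separate from the diet comparison. The values within diets were not tested. The share of all features related to the adipocyte mean, the share of spots or this probe was not computed. Whether these counts of members exceed that of the array is therefore not known.

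**Figure D4:**
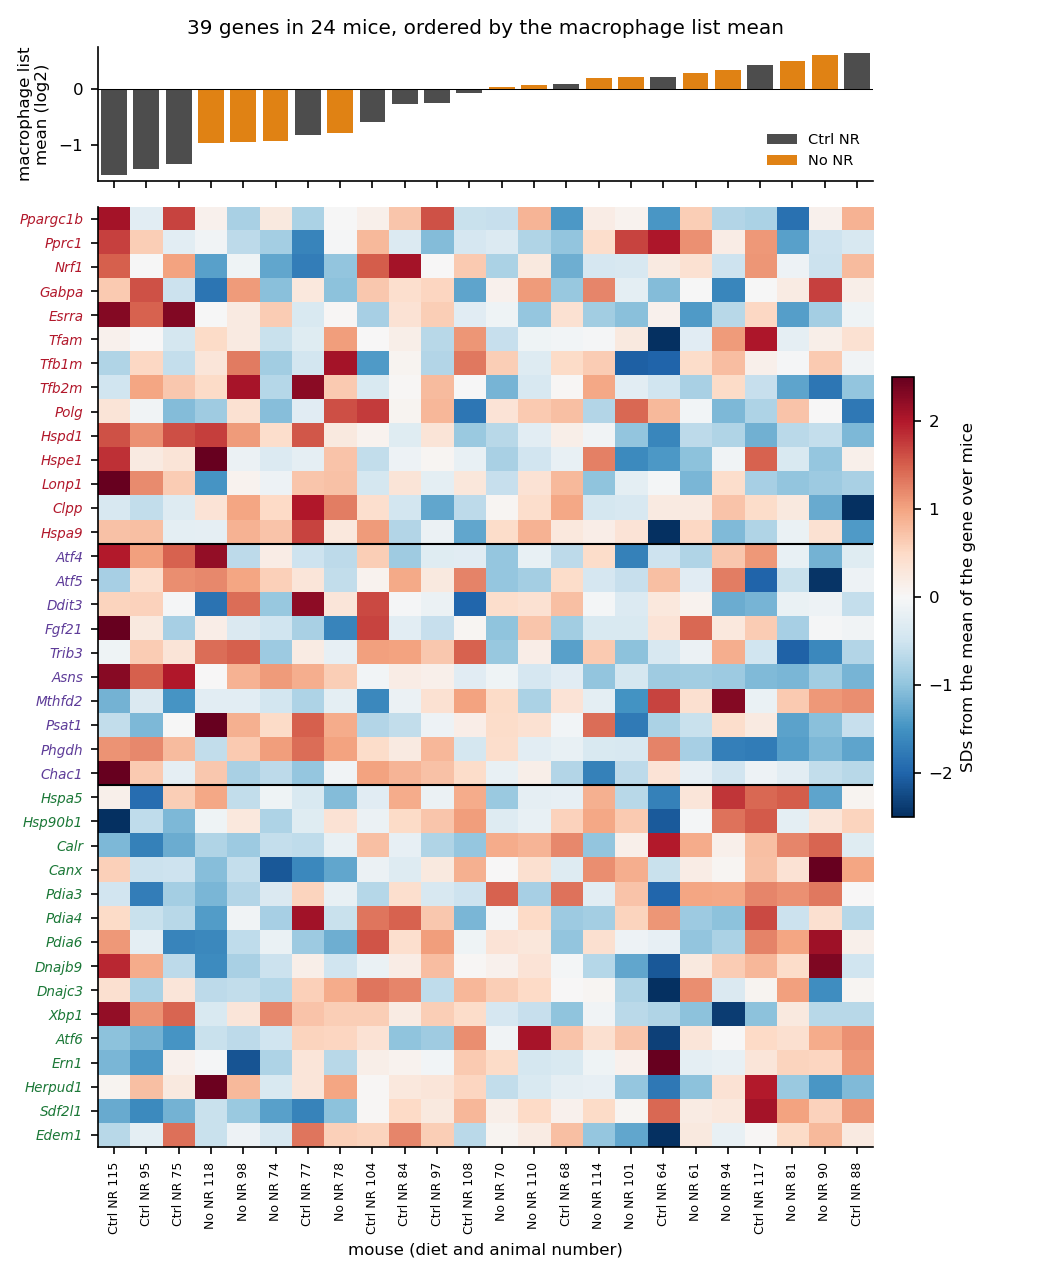
Rows are the 39 genes (red names: mitochondrial factors; purple: integrated stress genes; green: ER genes), columns the 24 mice in order of their macrophage list mean, shown as bars above with Ctrl NR in grey and No NR in orange; colour gives each value in SDs from the mean of its gene, cut at 2.5. Asns, Hspd1, Xbp1 and Phgdh run from high at left to low at right and Sdf2l1 and Calr the other way, with mice of both diets at each end.

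Within the groups, members were related to 1 anchor gene (2 for the integrated stress genes). Hspd1 went with Tfb2m (r = 0.604, rho = 0.568) and Hspa9 (r = 0.585, rho = 0.528), the latter at 0.138 within No NR and not called without Ctrl NR 64. With its neighbour Hspe1 r was 0.524 and rho 0.458 (permutation test, adjusted p = 0.043 and 0.114), which was not called. Asns went with Phgdh (r = 0.762, rho = 0.771; within diets 0.670 and 0.885) and against Mthfd2 (r = -0.592, rho = -0.611; not called without Ctrl NR 75). Asns, Phgdh, Mthfd2, Hspd1 and Tfb2m were also called with the macrophage mean and Hspa9 with the adipocyte mean. These relations were not tested apart from those with the list means. The share of all features related to an anchor gene was not computed. Atf4 was related to 0 of the 9 other integrated stress genes (r from -0.25 to 0.46) and Hspa5 to 0 of the 14 other ER genes (r from -0.22 to 0.45), by the same test. With median centring, 40 of the 44 relations between members had an adjusted p of r under 0.05, against 6 with loess.

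How far a single probe can carry such values was read from the 10 members with more than 1 probe above the filter. The 3 probes of Hspe1 moved together (r of the probe used with the others 0.932 and 0.675, rho 0.872 and 0.752), and so did both probes of Phgdh (r = 0.830, rho = 0.891). Adjusted over the 11 pairs of probes, the permutation p of r and rho was under 0.05 for these 3 pairs alone. For 7 others r lay between -0.326 (Dnajb9) and 0.404 (Atf4), with Nrf1 at -0.123, Gabpa at -0.151, Pdia6 at 0.0191, Psat1 at 0.163 and Polg at 0.350. For Tfam r was 0.599 but rho 0.117, and -0.0764 without the 2 farthest mice, so the agreement of its probes rests on those 2 mice. In Dnajb9 the probe used showed -0.06 between the diets and the other -0.15 (unadjusted limma p = 0.0345).

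The relations with cell type markers also depended on how the arrays were normalized. All 13 relations with the macrophage mean kept the sign they had under loess with the processed signals, without background correction and in the authors' deposited log2 Cy5 values. The Aquantile step leaves ratios unchanged and could not alter them. With median centring in place of loess, the 7 negative ones turned positive: r was 0.229 for Asns, 0.603 for Hspd1, 0.646 for Xbp1, 0.493 for Phgdh, 0.651 for Esrra, 0.742 for Lonp1 and 0.633 for Tfb2m. Under median centring, the difference between bright and dim features ran from -2.20 to -0.06 over the arrays (SD 0.552), against -0.11 to -0.01 (SD 0.0253) with loess. The macrophage list mean followed this array-wide difference at r = 0.829 under median centring and 0.540 under loess, and 17 of the 25 macrophage markers were brighter than the 75th percentile of features. Under median centring the macrophage and adipocyte means were no longer opposed (r = 0.335).

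**Figure D5:**
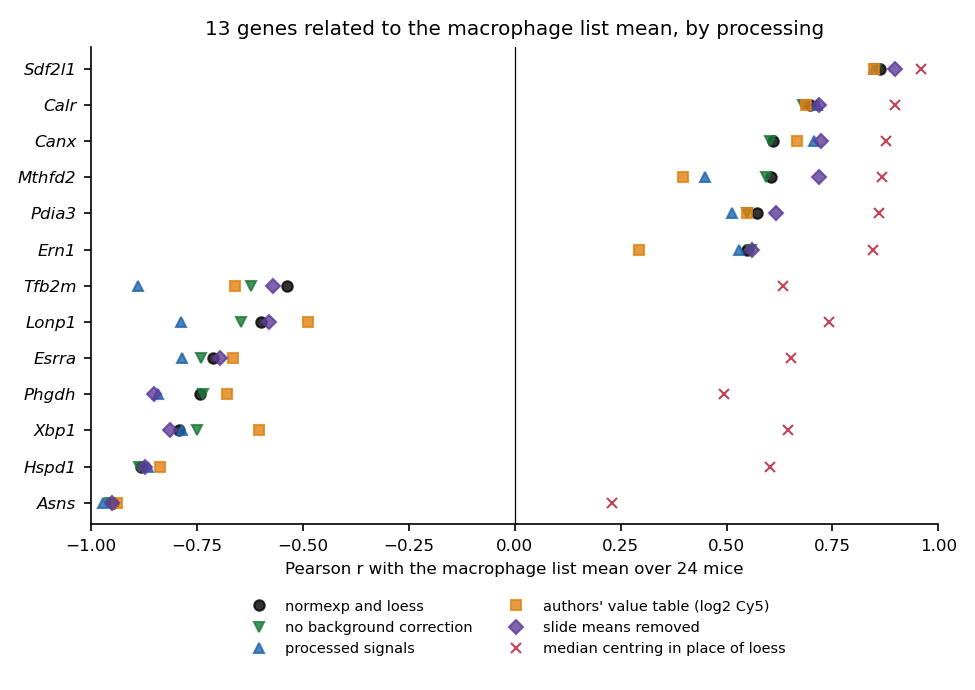
Pearson's r of 13 genes with the macrophage list mean over 24 mice (horizontal axis) under 6 ways of processing the arrays, marked by symbol. In 5 of them, the main one (normexp and loess) included, each gene has the same sign. With median centring (red crosses) all 13 are positive, from 0.229 for Asns upwards.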

How the data were processed

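Linear spot intensity was read from the deposited scanner output of Agilent Feature Extraction 10.7.3.1, the version named in the submitters' processing notes, which also flags each spot as an outlier, saturated or above background, per the file headers. Median intensities were used. The authors' deposited value table holds log2 values of 26384 features that followed the log2 Cy5 signal of their array (lowest r 0.990) rather than its log ratio (highest r 0.0692); its normalization is not given in the sources used here, and it served as an alternative. Control spots had weight 0 in loess and were left out with outlier spots, after normexp correction with an offset of 50. A probe was kept when well above background in Cy5 on at least 6 of 12 arrays of a diet (24769 of 55681), and a gene is represented by its brightest kept probe. Accessions without versions matched 1 RefSeq symbol for 27235 probes and none for 28446. The file headers name build mm9, so array coordinates are not given, and sequences and their coordinates are from RefSeq, GRCm38.p6.

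Diets were compared with limma 3.58.1 (lmFit, eBayes; a diet term alone) in R 4.3.3, with Benjamini-Hochberg adjustment over all 21051 features at 0.05, and relations were tested in Python 3.11.15. Tested on simulated data for this comparison (10 runs, 200 of 21051 features changed), 86.8% of features with a log2 shift of 0.5 and 98.5% of those with a shift of 1 passed, with a median of 3.5 false calls. The differences of the members were smaller (-0.36 to 0.14), and shifts of that size were not simulated. The members, the gene lists and the tests were chosen with earlier results of these data known. By the naming rule, every member has its difference. Lowest, median, highest, SE and p are given for the 3 members of each group with the lowest p. They are also given for 11 further genes (some of them the same). Of the other pathway genes, the 2 per list with the lowest p have the difference, SE and adjusted p. Alternatives covered the background correction, the normalization, the source of the values, the filter on dim probes, slide as a fixed or random block, array weights, several probes per gene and leaving out each mouse. The comparison of probes of a gene and of bright with dim features was added after the data were seen.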

Additional observations from a re-analysis of the deposited data

How the results depend on the processing

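By limma, 0 members reached an adjusted p under 0.05 with 11 other settings or on leaving out any of the 24 mice. The count over all features, 0 in the main fit, was 275 with array weights. It was 3 with only probes above background on all arrays. Dropping 1 Ctrl NR mouse gave 227 (mouse 68), 220 (117), 80 (104), 34 (75) and 9 (77) features. Dropping 1 mouse of the other diet gave 3 (mouse 78) and 2 (118). In the remaining fits the count stayed at 0. Of the 39 members, 22 kept their sign in every setting measured and 32 on leaving out any 1 mouse. Members at an unadjusted p under 0.05 numbered 4 in all (2 mitochondrial, 1 integrated stress, 1 ER), and 2 (1, 1, 0) without background correction, 1 (0, 1, 0) with median centring, 1 mitochondrial with the mean of kept probes, 0 ER with slide as a fixed block and 2 ER with array weights. Without 1 mouse the counts ran from 2 to 5 in all, from 1 to 3 for mitochondrial factors, from 0 to 2 for integrated stress genes and from 0 to 1 for ER genes. With median centring the median difference was -0.243 for integrated stress genes, -0.145 for ER genes and -0.134 for all members. Signs turned to -0.0269 (Tfam), -0.0297 (Polg), -0.0105 (Hspa9), -0.0652 (Psat1), -0.181 (Hspa5), -0.0984 (Hsp90b1), -0.048 (Calr), -0.145 (Canx) and -0.011 (Pdia3) with median centring. With processed signals they turned to 0.0121 (Pprc1), 0.00928 (Gabpa), -0.0400 (Mthfd2), -0.0526 (Hspa5), -0.0485 (Hsp90b1), 0.0333 (Dnajb9) and 0.000801 (Dnajc3). They turned to 0.0223 (Pprc1) and 0.0128 (Dnajc3) without background correction, to 0.0261 (Pprc1), -0.00631 (Hspa5) and 0.0131 (Sdf2l1) with array weights, to 0.00697 (Gabpa), -0.00657 (Polg) and 0.0442 (Pdia6) with the mean of kept probes, to -0.04 (Hspa5) and -0.0117 (Canx) in the authors' deposited value table, and to 0.017 (Hspe1), -0.000915 (Canx) and 0.0223 (Dnajc3) with slide as a fixed block. Without 1 mouse, the difference ran from -0.0462 to 0.0200 for Gabpa, from -0.0216 to 0.109 for Tfam, from -0.00296 to 0.0887 for Mthfd2, from -0.0158 to 0.0415 for Hspa5, from -0.0219 to 0.0458 for Canx, from -0.0619 to 0.0143 for Dnajc3 and from -0.107 to 0.0332 for Sdf2l1.

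Relations between members with an adjusted p of r under 0.05 numbered 6, and 10 without background correction, 12 with processed signals, 40 with median centring and 3 to 7 without 1 mouse; those with measures numbered 34, 57 with processed signals and 104 with median centring. Over 1017 alternatives of the 31 called relations, 973 stayed past the threshold, 30 kept the sign only and 14 turned, all 14 with median centring: besides the 7 with the macrophage mean (Asns 0.229, Hspd1 0.603, Xbp1 0.646, Phgdh 0.493, Esrra 0.651, Lonp1 0.742, Tfb2m 0.633), these were Mthfd2 with Asns (0.323), Mthfd2 (0.426), Calr (0.641), Canx (0.693), Ern1 (0.490) and Sdf2l1 (0.419) with the adipocyte mean, and Fgf21 with the share of spots above background (0.0278). The cause was not tested. Of the alternatives of each relation, 24 left out 1 mouse and shared all other mice, and Aquantile leaves ratios unchanged by construction. The 973 are therefore not independent checks. Slide as a random block and array weights were not run for relations. No paired analysis was possible because the diets share no animal number. Signal over background limits Ppargc1b, Mthfd2, Fgf21 and Ern1, which were not well above background on every array.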
